A study of Mus musculus with 18 samples.

Results

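The unfolded protein response and the integrated stress response were described through 42 genes of the endoplasmic reticulum (ER) stress sensors, their transcription factors and their targets, chosen by gene name from the 35275 genes of the count table. All 42 were found, and all 42 passed the filter on low counts. Their RNA was measured by RNA-seq in 18 libraries from 6 cell lines of malignant peripheral nerve sheath tumor (MPNST), an aggressive sarcoma of the nerve sheath. Each line was grown from a separate tumor of a wild-type 129 Sv/Jae mouse, raised by injecting the sciatic nerve with an adenovirus that carried Cas9 and guide RNAs. In 3 lines the guides targeted *Nf1* and p53 (*Trp53* in the mouse), with the genotype Nf1-/-;p53-/- (*Nf1*/*p53* dKO), and in 3 lines *Nf1* and *Cdkn2a*, with the genotype Nf1-/-;Cdkn2a-/- (*Nf1*/*Cdkn2a* dKO). All lines therefore carried the *Nf1* deletion, none was treated, and no *Nf1* wild-type or normal nerve sheath sample was compared here. Each line was plated in 3 cultures, and because these cultures stem from a single tumor, their counts were summed and the line was the unit of replication (n = 3 per genotype).

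Proteins that enter the secretory pathway fold in the ER, and unfolded proteins there are sensed by PERK (*Eif2ak3*), IRE1 (*Ern1*) and ATF6. PERK phosphorylates the translation factor eIF2alpha, as do related kinases that answer to amino acid shortage, heme shortage or viral RNA, and the transcription factor ATF4 is then translated and turns on genes for amino acid supply and stress. IRE1 splices the *Xbp1* mRNA, and ATF6 is released from its membrane by cleavage. XBP1 and ATF6 turn on ER chaperones and the ER-associated degradation (ERAD) machinery that returns misfolded proteins to the cytosol. Splicing of *Xbp1*, cleavage of ATF6 and phosphorylation of eIF2alpha are not seen in counts per gene, so the values below are of RNA levels only.

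The libraries held 19560535 to 28312207 counts, and the sums per line 65206479 to 73065228. Levels are given in CPM, the usual library-size-normalized count, here relative to a line's total after TMM scaling (edgeR's correction for composition), and differences as log2 fold changes of *Nf1*/*Cdkn2a* dKO over *Nf1*/*p53* dKO, so that a positive value is higher in *Nf1*/*Cdkn2a* dKO. In *Nf1*/*p53* dKO lines 1, 2 and 3, *Trp53* was at 94.1, 67.5 and 58.7 CPM, compared with 247, 246 and 185 CPM in *Nf1*/*Cdkn2a* dKO (adjusted p = 0.0361, edgeR). The RNA of the other targeted genes did not separate the genotypes. *Cdkn2a* was at 363, 279 and 42.9 CPM in *Nf1*/*p53* dKO and 169, 392 and 285 CPM in *Nf1*/*Cdkn2a* dKO, with the higher mean in the lines labelled as *Cdkn2a* deleted (282 ± 111 against 228 ± 166 CPM, SD, n = 3). *Nf1* was at 70.0, 33.5 and 27.7 CPM against 12.7, 38.3 and 16.2 CPM. A deletion made by Cas9 need not remove the transcript, so counts per gene do not check these labels. The lines are labelled mesenchymal and expressed 7 mesenchymal markers at a summed 10424 to 24033 CPM. Of these, *Vim* was at 4727 to 10207 CPM in all 6 lines. The 7 Schwann cell markers summed to 5.44 to 87.7 CPM in *Nf1*/*p53* dKO and 2.61 to 6.66 CPM in *Nf1*/*Cdkn2a* dKO, so the genotypes overlapped. Among them, *Sox10* was at most at 0.0990 CPM, while *Ngfr* was at 64.3 CPM in *Nf1*/*p53* dKO line 2. *Egr2* was at 2.60, 19.4 and 7.07 CPM in *Nf1*/*p53* dKO and 1.27, 1.33 and 4.16 CPM in *Nf1*/*Cdkn2a* dKO. The summed level of 7 muscle progenitor and muscle markers differed with genotype, at 54.6 to 324 CPM in *Nf1*/*p53* dKO and 0.606 to 5.28 CPM in *Nf1*/*Cdkn2a* dKO, with 4 of the 7 lower in every *Nf1*/*Cdkn2a* dKO line and *Pax7* at or below 0.0277 CPM everywhere. *Nf1*/*p53* dKO line 3 stood apart with 204 CPM of *Myod1*. Of 6 leukocyte markers, summed at 3.86 to 8.09 CPM in *Nf1*/*p53* dKO and 18.3 to 26.5 CPM in *Nf1*/*Cdkn2a* dKO, *Ptprc*, *Itgam* and *Tyrobp* stayed at or below 0.563 CPM and *Laptm5* made up 11.0 to 18.6 CPM in *Nf1*/*Cdkn2a* dKO. The 5 endothelial and 4 epithelial markers summed to at most 2.13 and 1.44 CPM. The part of the muscle, Schwann cell and leukocyte markers in the differences below was not tested. In bulk RNA, fewer cells of a type and less RNA per cell cannot be told apart. Per the study's methods, the lines were passaged repeatedly before use to leave tumor cells alone.

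The promoters of the genes were searched for the known binding elements of these branches, in the window from 250 bases before to 50 after each start (RefSeq, GRCm38.p6, both strands). The genes were chosen as sensors, factors and targets of these branches, so the shares of matches below are not independent of that choice. Windows were matched for 35 of the 42 genes, the others being *Ppp1r15b*, *Atf6*, *Creb3l1*, *Derl1*, *Manf*, *Hyou1* and *Sec61a1*. The ER stress element (ERSE: CCAAT, any 9 bases, CCACG), through which ATF6 acts with NF-Y, was found in 6 of the 35 genes (17.1%), against 37 of 27025 genes with a window (0.137%). All 6 belong to ERAD (*Syvn1*, *Derl3*) or to folding and translocation (*Creld2*, *Calr*, *Canx*, *Pdia6*). Their elements, in capitals, with 20 bases on each side up to the start site, read:
Syvn1 (chr19:6046512-6046570, + strand): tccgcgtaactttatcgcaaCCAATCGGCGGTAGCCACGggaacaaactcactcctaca
Derl3 (chr10:75893222-75893280, + strand): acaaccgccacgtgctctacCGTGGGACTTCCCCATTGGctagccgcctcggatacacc
Creld2 (chr15:88819500-88819558, + strand): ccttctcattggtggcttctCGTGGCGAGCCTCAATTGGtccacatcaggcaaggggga
Calr (chr8:84847055-84847113, - strand): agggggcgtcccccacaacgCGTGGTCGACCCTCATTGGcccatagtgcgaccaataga
Canx (chr11:50325780-50325838, - strand): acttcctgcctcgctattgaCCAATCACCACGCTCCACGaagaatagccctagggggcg
Pdia6 (chr12:17266471-17266529, + strand): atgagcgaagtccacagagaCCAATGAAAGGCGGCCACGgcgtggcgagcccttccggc

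The amino acid response element bound by ATF4 with C/EBP partners (CARE: TGATG, any base, AA) was found in 5 of the 35 genes (14.3%), against 4.51% of all genes. These were *Trib3*, *Nupr1*, *Chac1* and *Vldlr* of the ATF4 branch, and *Herpud1*. All 5 matches lay on the strand opposite to the gene, so that they read TT, any base, CATCA, and the one of *Trib3* began 14 bases after its start. The other 4 elements, in capitals with 20 bases on each side, read:
Nupr1 (chr7:126625553-126625600, - strand): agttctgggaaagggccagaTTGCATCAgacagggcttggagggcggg
Chac1 (chr2:119351029-119351076, + strand): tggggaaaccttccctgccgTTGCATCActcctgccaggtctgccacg
Vldlr (chr19:27216800-27216847, + strand): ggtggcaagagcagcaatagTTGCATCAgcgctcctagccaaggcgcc
Herpud1 (chr8:94386297-94386344, + strand): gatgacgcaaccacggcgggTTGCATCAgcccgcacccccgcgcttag
The XBP1 element (UPRE: TGACGTGG) was in none of the 35 windows and in 0.714% of all genes. No window of the 42 genes held more than 1 of these matches. A match describes letters and is no measured binding.

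Between genotypes, 3 of the 42 genes differed with an adjusted p under 0.05 (edgeR's quasi-likelihood test on the 6 lines, Benjamini-Hochberg over 15207 genes), where 1.80% of all genes did. *Edem1* and *Syvn1*, both of ERAD, rose in *Nf1*/*Cdkn2a* dKO, where 0.638% of all genes were called higher, and *Trib3*, a target of ATF4 and CHOP, fell, where 1.16% were called lower. At an unadjusted p under 0.05 there were 21 of 42 genes, 17 higher and 4 lower, where 22.4% of all genes passed. The 3 lines of one genotype lay outside the range of the other in 22 of 42 genes, where this held for 31.4% of all genes. Of these, 18 were higher in *Nf1*/*Cdkn2a* dKO, where 14.8% of all genes were, and 4 were lower, where 16.6% were. The log2 fold change was positive in 28 of 42 genes, where it was positive for 48.2% of all genes, and its median was 0.39, beside -0.02 over all genes tested. DESeq2 on the same 6 lines called 13 of the 42 genes, 10 higher and 3 lower. It called 11.8% of all genes, 813 of them higher and 1242 lower. These were of 17401 genes rather than the 15207 of edgeR, so the shares of the 2 tools have unlike bases. Its calls were *Stc2*, *Creb3*, *Edem1*, *Syvn1*, *Derl3*, *Sdf2l1*, *Manf*, *Calr*, *Pdia3* and *Pdia4* as higher and *Atf4*, *Atf5* and *Trib3* as lower. Scaling to total counts alone, chosen after seeing the data, moved the median of all genes to -0.16, gave 86 higher and 337 lower calls over all genes against 97 and 177 with TMM, and called *Edem1* higher and *Trib3* and *Atf5* lower.

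**Figure D1:**
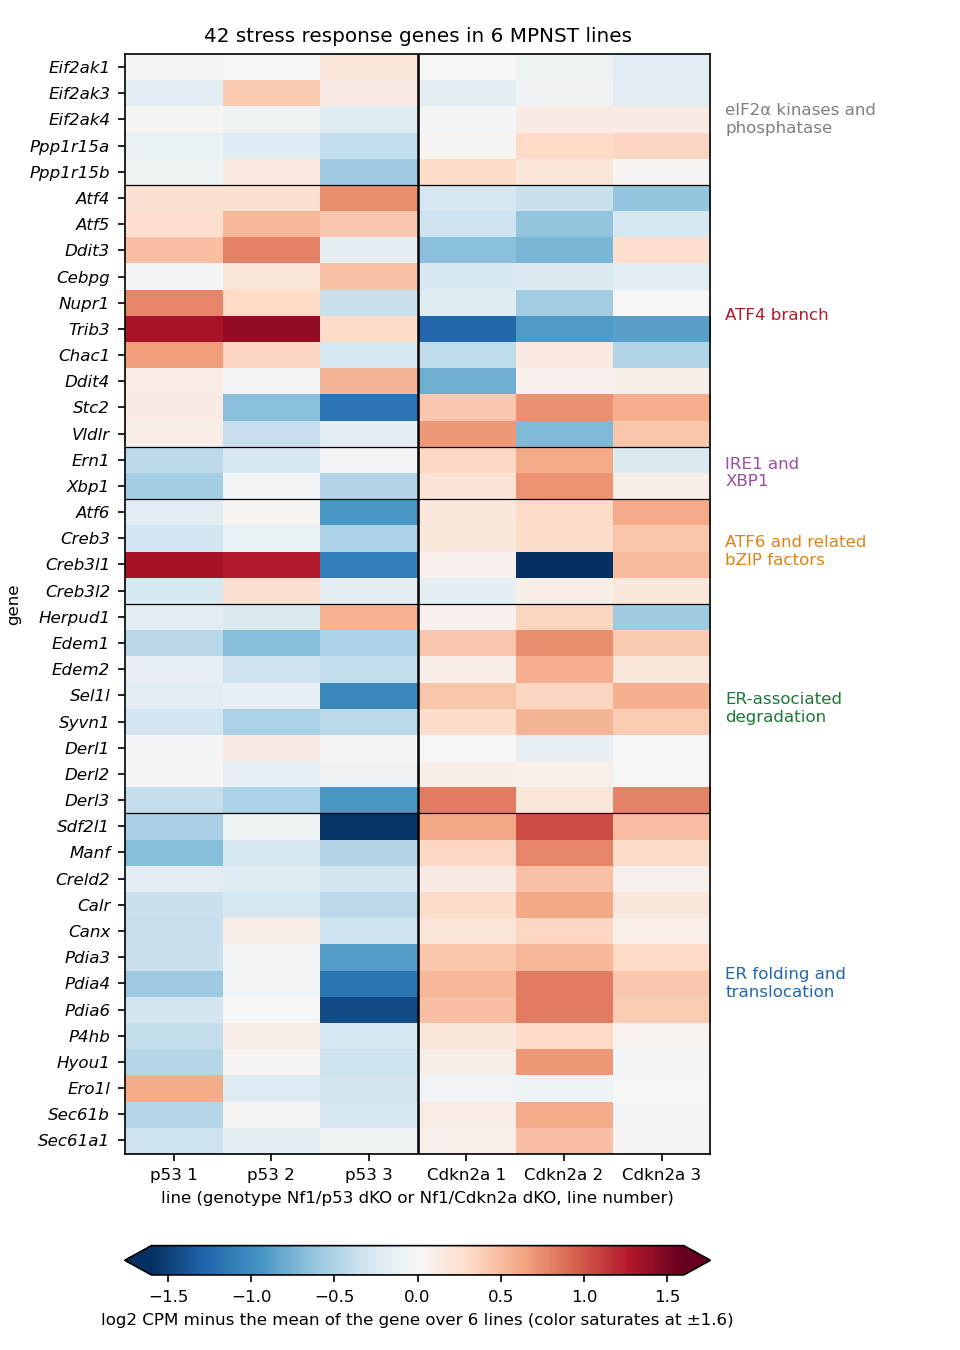
Each cell shows the log2 CPM of one of the 42 genes (vertical axis, by branch) in one of the 6 lines (horizontal axis), minus the mean of that gene over the 6 lines, with red above and blue below it. The 8 genes from *Atf4* to *Ddit4* are mostly red in *Nf1*/*p53* dKO, and the ERAD and folding genes are mostly blue there and red in *Nf1*/*Cdkn2a* dKO.

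The branches did not share a direction. The median log2 fold change was -0.53 over the 10 genes of the ATF4 branch, 8 of them negative, and 0.53 over the 13 genes of ER folding and translocation, 12 of them positive. It was 0.70 over the 8 ERAD genes, 0.61 over *Ern1* and *Xbp1*, 0.34 over the 4 genes of ATF6 and related factors, and 0.16 over the 5 kinase and phosphatase genes. All 4 genes that were lower in every *Nf1*/*Cdkn2a* dKO line belong to the ATF4 branch. Of the 18 genes that were higher in every such line, 8 belong to folding and translocation and 5 to ERAD. Over all genes, 48.2% had a positive log2 fold change, and 14.8% were higher and 16.6% lower in every *Nf1*/*Cdkn2a* dKO line. These medians and counts describe the lists and carry no test.

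**Figure D2:**
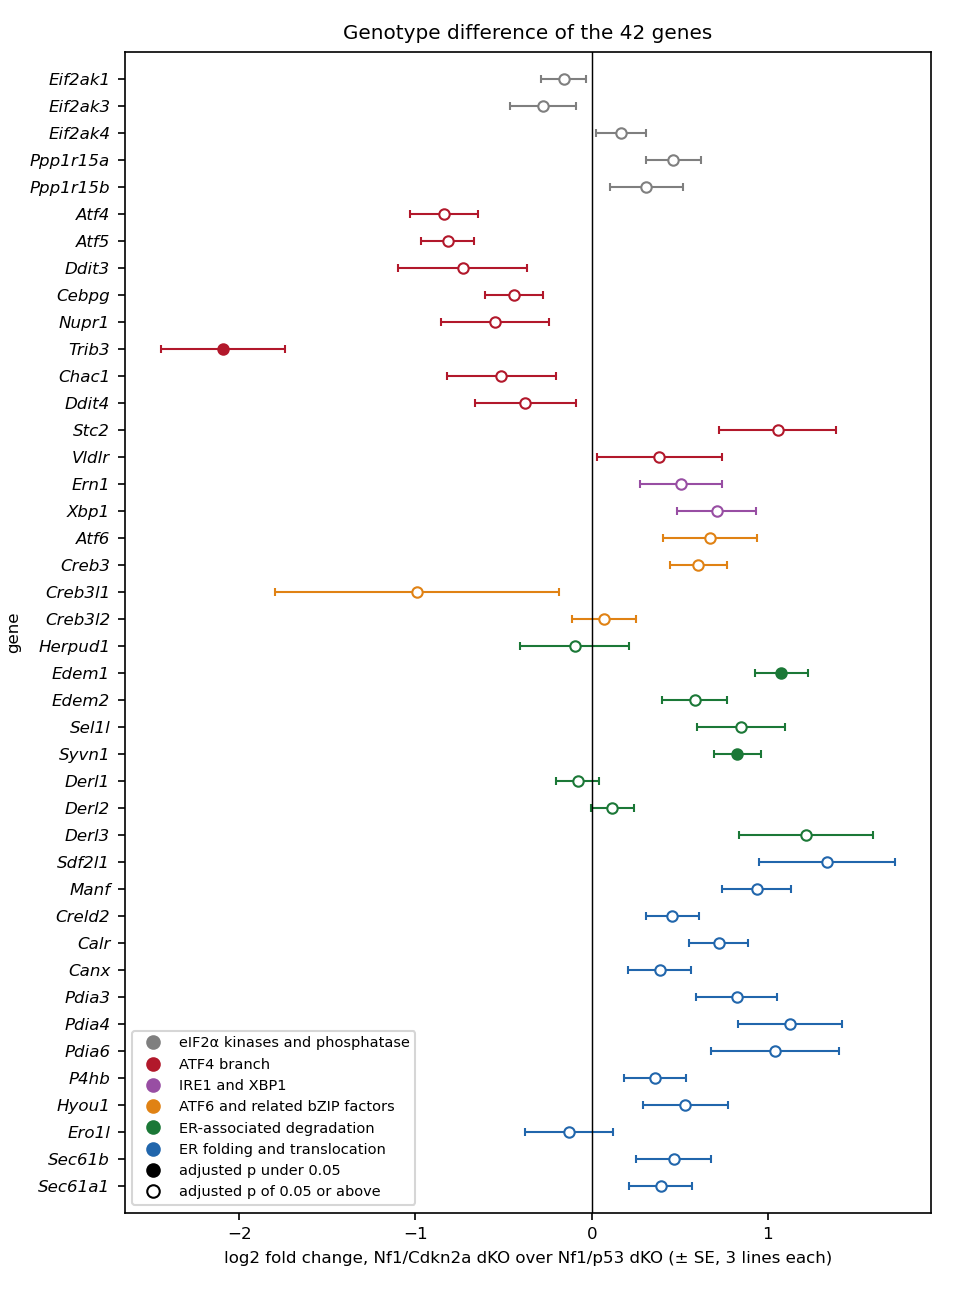
Points give the log2 fold change of *Nf1*/*Cdkn2a* dKO over *Nf1*/*p53* dKO (horizontal axis) for each of the 42 genes (vertical axis, colored by branch), with bars of ± 1 SE from 3 lines per genotype, filled where the adjusted p was under 0.05. The filled points are *Trib3* at -2.09, *Edem1* at 1.08 and *Syvn1* at 0.83.

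The sensor of the first branch showed no difference that passed the test. *Eif2ak3*, which encodes PERK, had the lowest log2 fold change of the 5 kinase and phosphatase genes, at 25.5, 38.3 and 31.3 CPM in *Nf1*/*p53* dKO lines 1, 2 and 3 and 25.8, 27.6 and 25.3 CPM in *Nf1*/*Cdkn2a* dKO lines 1, 2 and 3 (log2 fold change -0.27 ± 0.19 SE, adjusted p = 0.432, edgeR). The genotypes overlapped in it, as they did in *Eif2ak1* and *Eif2ak4*, the heme and amino acid sensing kinases (log2 fold changes -0.16 and 0.16). *Ppp1r15a*, the inducible subunit GADD34 of the phosphatase that reverses eIF2alpha phosphorylation and itself a target of the response, was at 46.9, 44.0 and 38.2 CPM in *Nf1*/*p53* dKO and 51.3, 62.7 and 63.9 CPM in *Nf1*/*Cdkn2a* dKO. Its lines did not overlap, but the difference did not pass the test (0.46 ± 0.16 SE, adjusted p = 0.153, edgeR). *Ppp1r15b*, the constitutive subunit, overlapped (0.31 ± 0.21 SE).

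The largest difference among the 42 genes was in the ATF4 branch. *Trib3* (chr2:152337422-152344032, GRCm38, - strand), a pseudokinase induced by ATF4 and CHOP, was at 21.5, 23.0 and 10.6 CPM in *Nf1*/*p53* dKO, compared with 3.59, 4.62 and 4.72 CPM in *Nf1*/*Cdkn2a* dKO. The lowest of the 9 *Nf1*/*p53* dKO cultures, at 8.55 CPM, was above the highest of the 9 *Nf1*/*Cdkn2a* dKO cultures, at 5.23 CPM. Its level fell by 2.09 ± 0.35 (SE) on the log2 scale, a 4.26-fold difference (adjusted p = 0.0465, edgeR). Line 3 of *Nf1*/*p53* dKO lay below the other two of its genotype. Without that line the log2 fold change was -2.36 (adjusted p = 0.0380), and without any one of the other 5 lines the adjusted p was 0.0855 to 0.151, with log2 fold changes of -2.15 to -1.88.

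3 transcription factors of the branch were lower in every *Nf1*/*Cdkn2a* dKO line without passing the adjusted test. *Atf4* itself, the central factor, was at 321, 321 and 453 CPM in *Nf1*/*p53* dKO and 224, 212 and 177 CPM in *Nf1*/*Cdkn2a* dKO (-0.84 ± 0.19 SE, adjusted p = 0.0785, edgeR). *Atf5*, a related factor, was at 130.4, 157 and 146 CPM against 86.5, 70.2 and 89.4 CPM (-0.82 ± 0.15 SE, adjusted p = 0.0525, edgeR). *Cebpg*, which encodes a C/EBP partner of ATF4, was at 40.3, 47.2 and 57.0 CPM against 34.6, 35.4 and 36.4 CPM (-0.44 ± 0.17 SE, adjusted p = 0.185, edgeR). In all 3 genes the lowest *Nf1*/*p53* dKO line lay above the highest *Nf1*/*Cdkn2a* dKO line, as in 16.6% of all genes. DESeq2 on the 6 lines called *Atf4* and *Atf5*, where it called 1242 of 17401 genes lower. *Ddit3*, which encodes the proapoptotic factor CHOP, overlapped, because *Nf1*/*Cdkn2a* dKO line 3 at 26.8 CPM lay above *Nf1*/*p53* dKO line 3 at 19.97 CPM (-0.73 ± 0.37 SE). *Nupr1*, a stress-induced chromatin protein, *Chac1*, which degrades glutathione, and *Ddit4*, an mTORC1 inhibitor, also overlapped, with log2 fold changes of -0.55, -0.51 and -0.38.

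2 genes of the branch had a positive difference. *Stc2*, a secreted glycoprotein induced by PERK signaling, was at 60.2, 34.4 and 24.2 CPM in *Nf1*/*p53* dKO and 73.96, 90.9 and 82.0 CPM in *Nf1*/*Cdkn2a* dKO (1.05 ± 0.33 SE, adjusted p = 0.133, edgeR). Its lines did not overlap. *Vldlr*, a lipoprotein receptor, overlapped, with the highest and the lowest of the 6 lines both in *Nf1*/*Cdkn2a* dKO, at 48.7 CPM in line 1 and 18.6 CPM in line 2. Of the 4 genes of the branch with a CARE, *Trib3*, *Nupr1* and *Chac1* thus had negative log2 fold changes and *Vldlr* a positive one.

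**Figure D3:**
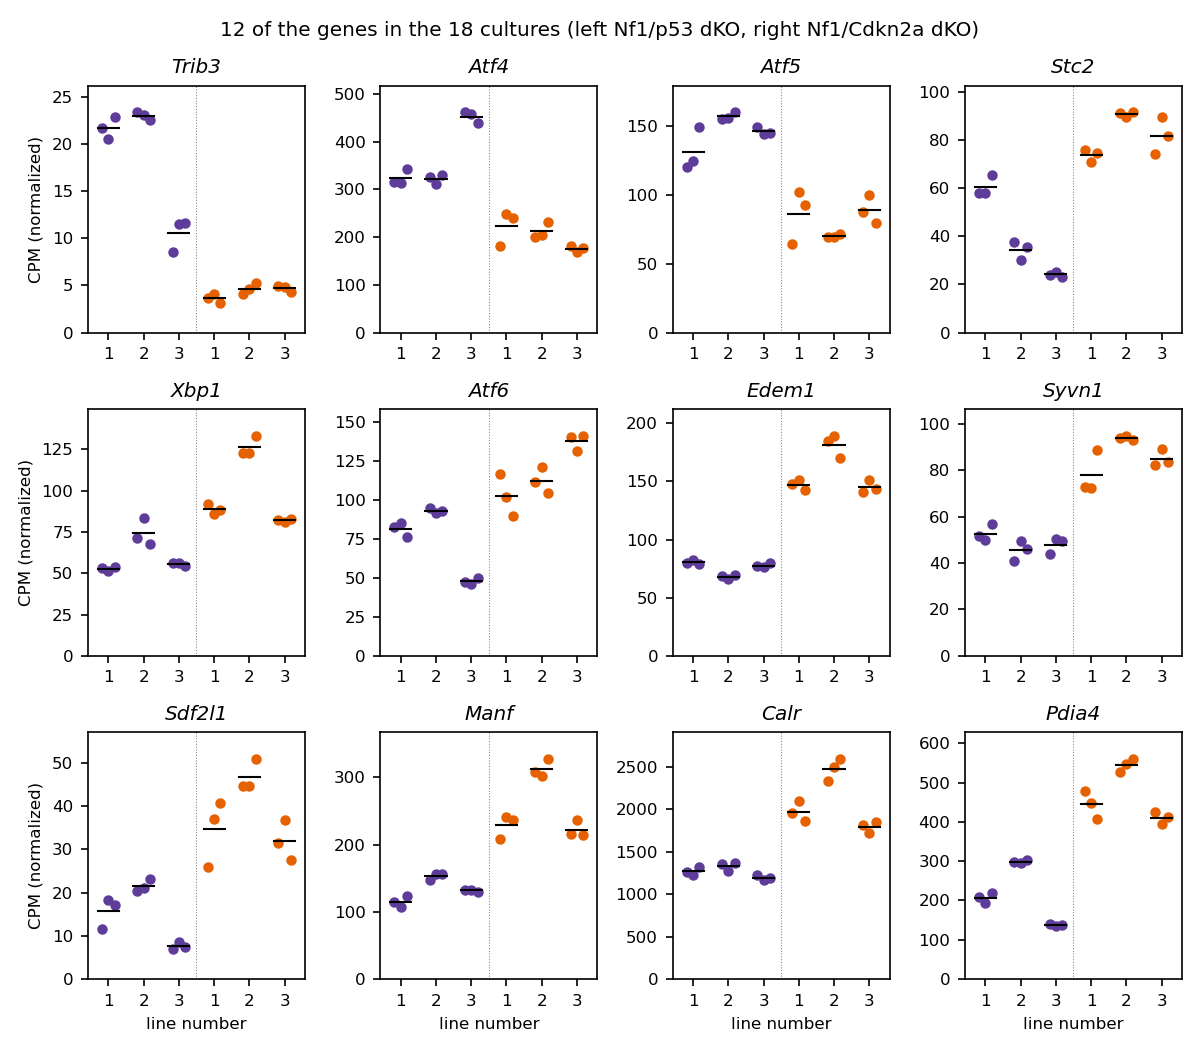
Each panel plots the CPM of one gene (vertical axis from 0, TMM-scaled) in the 3 cultures of each line (points) with the line's mean (bar), for *Nf1*/*p53* dKO lines (purple) and *Nf1*/*Cdkn2a* dKO lines (orange). The 9 cultures of one genotype lie above the 9 of the other in *Trib3*, *Atf4*, *Atf5*, *Stc2*, *Edem1*, *Syvn1*, *Sdf2l1*, *Manf*, *Calr* and *Pdia4*, but not in *Xbp1* and *Atf6*.

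In the IRE1 branch no difference passed the adjusted test. *Xbp1*, whose mRNA IRE1 splices and which is itself induced by ATF6, was at 52.3, 74.2 and 55.4 CPM in *Nf1*/*p53* dKO and 88.9, 126 and 82.4 CPM in *Nf1*/*Cdkn2a* dKO (0.71 ± 0.22 SE, adjusted p = 0.135, edgeR), with no overlap between lines. *Ern1*, which encodes IRE1, was at 48.2, 54.6 and 62.9 CPM against 81.7, 98.4 and 55.4 CPM (0.51 ± 0.23 SE, adjusted p = 0.262, edgeR), and line 3 of *Nf1*/*Cdkn2a* dKO lay within the other genotype's range.

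Among ATF6 and the related membrane-bound bZIP factors, *Atf6* was at 81.2, 93.0 and 47.7 CPM in *Nf1*/*p53* dKO and 102, 113 and 138 CPM in *Nf1*/*Cdkn2a* dKO (0.67 ± 0.27 SE, adjusted p = 0.205, edgeR). *Creb3*, a factor of the same kind that moves from the ER to the Golgi to be cleaved, was at 32.3, 36.9 and 28.2 CPM against 44.8, 48.9 and 54.4 CPM (0.61 ± 0.16 SE, adjusted p = 0.101, edgeR). Both were higher in every *Nf1*/*Cdkn2a* dKO line. *Creb3l1*, known for driving secretion of collagen, varied most between lines of all 42 genes, at 33.5, 32.1 and 6.24 CPM in *Nf1*/*p53* dKO and 14.0, 3.14 and 19.0 CPM in *Nf1*/*Cdkn2a* dKO, so that its log2 fold change of -0.99 had an SE of 0.80. *Creb3l2*, its closest relative, overlapped (0.07 ± 0.18 SE), and its sign turned with the scaling to total counts (-0.06).

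ERAD held both genes that rose. *Edem1* (chr6:108828641-108859356, GRCm38, + strand), a mannosidase-like protein that hands misfolded glycoproteins to degradation, was at 80.2, 67.9 and 77.6 CPM in *Nf1*/*p53* dKO and 147, 182 and 146 CPM in *Nf1*/*Cdkn2a* dKO. That is a 2.11-fold difference (1.08 ± 0.15 SE, adjusted p = 0.0361, edgeR). *Syvn1* (chr19:6046576-6053712, + strand), which encodes the ubiquitin ligase HRD1 at the core of the degradation complex and carries the ERSE printed above, was at 52.2, 45.4 and 47.9 CPM against 78.6, 94.2 and 85.1 CPM, a 1.77-fold difference (0.83 ± 0.13 SE, adjusted p = 0.0465, edgeR). In both genes the 3 lines of a genotype lay close together and the gap between genotypes was wider than either range. Leaving out whichever 1 of the 6 lines brought both above the threshold, with log2 fold changes of 0.97 to 1.138 and adjusted p of 0.0622 to 0.124 for *Edem1*, and 0.76 to 0.89 and 0.0716 to 0.141 for *Syvn1*. Scaling to total counts also brought *Syvn1* above the threshold (0.69, adjusted p = 0.0579, edgeR). *Syvn1* overlaps *Mrpl49* on the opposite strand (log2 fold change -0.04), and whether reads were counted by strand is not given in the sources used here.

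*Sel1l*, the adaptor that holds HRD1 in its complex, was at 81.1, 84.4 and 45.0 CPM in *Nf1*/*p53* dKO and 126, 117 and 136 CPM in *Nf1*/*Cdkn2a* dKO (0.85 ± 0.25 SE, adjusted p = 0.120, edgeR). *Edem2*, the mannosidase that starts glycan trimming, was at 25.6, 22.3 and 21.5 CPM against 30.4, 42.1 and 31.8 CPM (0.58 ± 0.19 SE, adjusted p = 0.138, edgeR). The lines of neither gene overlapped. The 3 derlins, membrane proteins of the exit channel, differed among themselves. *Derl3* had the highest log2 fold change of the ERAD genes at the lowest level of all 42 genes, 0.644, 0.594 and 0.443 CPM against 1.49, 0.966 and 1.45 CPM (1.22 ± 0.38 SE, adjusted p = 0.133, edgeR), with as few as 32 counts in a line. *Derl1* and *Derl2* overlapped and had log2 fold changes of -0.08 ± 0.12 and 0.12 ± 0.12 (SE), the latter turning to -0.02 with scaling to total counts. *Herpud1*, an ERAD organizer that both ATF4 and ATF6 can induce, had the lowest value of the list, at 57.6, 54.9 and 94.7 CPM against 67.6, 82.5 and 43.5 CPM (-0.10 ± 0.31 SE), and its sign turned to 0.20 without *Nf1*/*p53* dKO line 3 and to 0.13 without *Nf1*/*Cdkn2a* dKO line 3.

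The 4 most abundant of the 42 genes belong to ER folding and translocation. Per length (TPM, from exon lengths of GENCODE M21), the calcium-binding chaperone *Calr* averaged 1918 over the 6 lines (1422 to 2773), the disulfide isomerases *P4hb* 1385 (1108 to 1663) and *Pdia3* 1145 (610 to 1533), and *Canx*, the membrane partner of *Calr*, 606 (488 to 728). The ranges of the first 3 overlapped one another. At the other end, *Derl3* averaged 1.53 TPM. Reads of the copy *Calr-ps* could not be told from those of *Calr* by the sources used here.

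None of the 13 folding and translocation genes passed the adjusted edgeR test, and 7 passed an unadjusted p under 0.05 (22.4% of all genes). DESeq2 on the 6 lines called 5 of them (11.8% of its 17401 genes), *Sdf2l1*, *Manf*, *Calr*, *Pdia3* and *Pdia4*. *Sdf2l1*, a cochaperone of BiP, had the highest log2 fold change of all 42 genes, at 15.9, 21.5 and 7.64 CPM in *Nf1*/*p53* dKO and 34.9, 46.6 and 32.0 CPM in *Nf1*/*Cdkn2a* dKO (1.33 ± 0.39 SE, adjusted p = 0.115, edgeR). *Manf*, a secreted protein released on ER stress, was at 114, 153 and 132 CPM against 229, 312 and 223 CPM (0.94 ± 0.19 SE, adjusted p = 0.0633, edgeR). *Creld2*, a disulfide isomerase-like protein of the same response, was at 68.6, 67.5 and 63.4 CPM against 85.1, 107 and 81.5 CPM (0.46 ± 0.15 SE, adjusted p = 0.144, edgeR). In each of these the lowest *Nf1*/*Cdkn2a* dKO line lay above the highest *Nf1*/*p53* dKO line.

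The same held for *Calr* and for 3 disulfide isomerases. *Calr* was at 1259, 1332 and 1195 CPM in *Nf1*/*p53* dKO and 1969, 2471 and 1807 CPM in *Nf1*/*Cdkn2a* dKO (0.72 ± 0.17 SE, adjusted p = 0.0787, edgeR). *Pdia3*, the isomerase that works with *Calr* on glycoproteins, was at 806, 997 and 558 CPM against 1398, 1489 and 1290 CPM (0.82 ± 0.23 SE, adjusted p = 0.109, edgeR). *Pdia4* was at 205, 298 and 138 CPM against 443, 544 and 413 CPM (1.13 ± 0.29 SE, adjusted p = 0.0955, edgeR). In these isomerases *Nf1*/*p53* dKO line 3 was the lowest and *Nf1*/*Cdkn2a* dKO line 2 the highest of the 6 lines, and *Pdia6* had the same order, at 333, 407 and 150 CPM against 568, 722 and 540 CPM (1.04 ± 0.36 SE, adjusted p = 0.164, edgeR). *Sec61a1*, the pore of the translocation channel, was at 360, 410 and 438 CPM against 485, 637 and 462 CPM (0.39 ± 0.18 SE, adjusted p = 0.255, edgeR) and did not overlap either, by a gap of less than the range of either genotype. *Canx*, *P4hb*, the chaperone *Hyou1* and the channel subunit *Sec61b* overlapped, with log2 fold changes of 0.36 to 0.53. *Ero1l*, the oxidase that recharges the isomerases, was the exception in sign, at 125, 72.3 and 67.3 CPM against 80.5, 78.8 and 82.8 CPM (-0.13 ± 0.25 SE). Without *Nf1*/*p53* dKO line 1, the one high value, it was 0.21.

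Of the 6 genes with an ERSE, all had positive log2 fold changes, from 0.39 (*Canx*) to 1.22 (*Derl3*), where 48.2% of all genes did. All but *Canx*, 5 genes, were higher in every *Nf1*/*Cdkn2a* dKO line, where 14.8% of all genes were. They overlap with the lists above by construction and are no separate evidence.

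Lines of one genotype differed from each other as well. In edgeR's test that the 3 lines of each genotype are equal, on the 18 cultures, 40 of the 42 genes passed an adjusted p under 0.05, where 81.3% of all 14690 genes tested did. The 2 that did not were *Derl2* (adjusted p = 0.185, edgeR) and *Derl3* (adjusted p = 0.380, edgeR). Between lines of a genotype lay a median 89.2% of each gene's variance of log2 CPM within genotypes, beside 75.4% over all genes, the rest lying between cultures. By genotype the medians were 92.7% in *Nf1*/*p53* dKO and 73.0% in *Nf1*/*Cdkn2a* dKO, beside 83.0% and 55.0% over all genes. These shares were not adjusted for the level of the genes. Culture 1 of *Nf1*/*Cdkn2a* dKO line 1 differed most from the other cultures of its line, and its part in these shares was not tested. Over all 6 lines, with the genotype difference included, the ratio of the highest to the lowest line ranged from 1.17 in *Derl2* to 10.7 in *Creb3l1*. It was 6.10 in *Sdf2l1* and 6.403 in *Trib3*. Within *Nf1*/*p53* dKO and within *Nf1*/*Cdkn2a* dKO, this ratio was 2.82 and 1.45 in *Sdf2l1*, 2.17 and 1.31 in *Trib3*, and 5.37 and 6.03 in *Creb3l1*. The study describes the 3 cultures of a line as independent samples, and all 3 come from the same tumor.

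The lines differed within the folding group together. *Nf1*/*Cdkn2a* dKO line 2 was the highest of the 6 lines in 12 of the 13 folding and translocation genes, *Ero1l* being the exception, and in 18 of all 42 genes. The lowest line was *Nf1*/*p53* dKO line 1 in 6 of the 13 and *Nf1*/*p53* dKO line 3 in the other 7. As the median of log2 CPM minus each gene's mean over the 6 lines, this group stood at -0.37, -0.05 and -0.35 in *Nf1*/*p53* dKO lines 1, 2 and 3 and at 0.20, 0.59 and 0.08 in *Nf1*/*Cdkn2a* dKO lines 1, 2 and 3. The ATF4 branch stood at 0.26, 0.28 and 0.07 against -0.30, -0.45 and -0.08, so that *Nf1*/*Cdkn2a* dKO line 2 had the highest folding median and the lowest ATF4 branch median of the 6 lines. *Nf1*/*p53* dKO line 3 was low in both groups compared with line 2 of its genotype, and was the lowest of the 6 lines in 16 of the 42 genes. ERAD stood at -0.18, -0.29 and -0.41 against 0.20, 0.35 and 0.29. The genes of a group come from the same libraries, so these medians describe the lines and are not separate measurements.

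**Figure D4:**
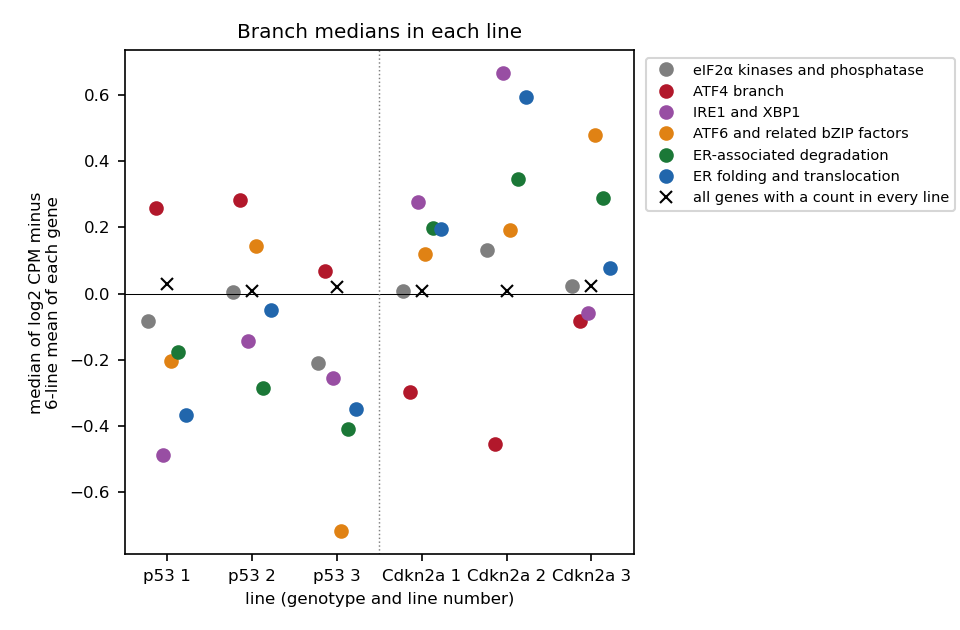
Points give, for each line (horizontal axis), the median over a group's genes of log2 CPM minus the gene's mean over the 6 lines (vertical axis), with colors for the 6 groups and crosses for all genes. The ATF4 branch lies at 0.07 to 0.28 in *Nf1*/*p53* dKO and at -0.45 to -0.08 in *Nf1*/*Cdkn2a* dKO, and folding and translocation at -0.37 to -0.05 and 0.08 to 0.59.

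A list of 62 other genes of the same pathways was read from the same fit, and all 62 passed the filter. Of these, 3 were called, *Asns* and *Phgdh* lower and *Tnfrsf10b* higher. Their lines did not overlap between genotypes in 35 of 62 genes, 21 higher and 14 lower in *Nf1*/*Cdkn2a* dKO, and the median log2 fold change was 0.16. Over all genes, 1.80% were called and 31.4% did not overlap, 14.8% higher and 16.6% lower, and the counts of the lists below are to be read against these shares. Promoter windows were matched for 49 of the 62 genes, also chosen by pathway. An ERSE was found in 4, *Hspa5*, *Hsp90b1*, *Dnajc3* and *Ero1lb* (0.137% of all genes). A UPRE was found in 4, *Txndc5*, *Kdelr3*, *Vcp* and *Ube2j1* (0.714% of all genes). A CARE was found in 9 (4.51% of all genes), among them *Txndc5*, *Kdelr1* and *Faf2* of the folding and ERAD lists.

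Of the 20 other genes of the integrated stress response, many of them targets of ATF4, the median was -0.48, with 10 lower and 1 higher in every *Nf1*/*Cdkn2a* dKO line (16.6% and 14.8% of all genes). *Asns*, asparagine synthetase, was at 113, 189 and 133 CPM in *Nf1*/*p53* dKO and 56.9, 62.1 and 48.7 CPM in *Nf1*/*Cdkn2a* dKO (-1.37 ± 0.22 SE, adjusted p = 0.0465, edgeR). *Phgdh*, the first enzyme of serine synthesis, was at 479, 659 and 602 CPM against 258, 244 and 165 CPM (-1.38 ± 0.22 SE, adjusted p = 0.0465, edgeR). Both calls were lost in at least 5 of the 6 fits that left out a line, *Asns* being called only without *Nf1*/*p53* dKO line 1 and *Phgdh* in none. *Fgf21*, a hormone induced by ATF4, had the lowest value, with 123 counts over the *Nf1*/*p53* dKO cultures and 12 over the *Nf1*/*Cdkn2a* dKO cultures, so that its fitted fold change depends on the prior count. The highest was *Atf3*, a stress-induced repressor, at 2.91, 4.05 and 1.66 CPM against 3.10, 4.15 and 5.93 CPM (0.61 ± 0.44 SE). A CARE lay in 6 of the 15 matched windows of this list (4.51% of all genes), whose genes were chosen for this response. That of *Asns*, on the strand of the gene and 23 bases before its start, reads in capitals:
Asns (chr6:7693210-7693252, - strand): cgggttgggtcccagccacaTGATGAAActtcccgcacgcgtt

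The 21 other folding and translocation genes had a median of 0.41, with 10 higher (14.8% of all genes) and 0 lower in every *Nf1*/*Cdkn2a* dKO line. None passed the adjusted edgeR test, while 10 passed an unadjusted p under 0.05 (22.4% of all genes). The highest was *Dnajb9*, a BiP cochaperone that restrains IRE1, at 33.7, 24.1 and 14.7 CPM against 47.5, 54.3 and 50.4 CPM (1.07 ± 0.30 SE, adjusted p = 0.109, edgeR). The lowest was *Ssr2*, of the translocon-associated complex, at 183, 303 and 222 CPM against 138, 183 and 111 CPM (-0.71 ± 0.26 SE, adjusted p = 0.179, edgeR). *Hspa5*, which encodes BiP, the main ER chaperone, was named after its values were seen, as the usual marker of the response. It was at 783, 1114 and 652 CPM against 1283, 1768 and 1110 CPM and overlapped by a narrow margin (0.71 ± 0.27 SE, adjusted p = 0.189, edgeR). Of the 9 other ERAD genes, with a median of 0.39, 7 were higher in every *Nf1*/*Cdkn2a* dKO line (14.8% of all genes). The lectin *Os9* had the highest value (1.17 ± 0.24 SE, adjusted p = 0.0616, edgeR), at 75.1, 72.9 and 76.8 CPM against 121, 155 and 228 CPM, and *Nploc4*, a cofactor of the extracting ATPase, the lowest (-0.10 ± 0.14 SE), at 184, 182 and 215 CPM against 187, 195 and 161 CPM.

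The 9 other genes of the IRE1 and ATF6 branches had a median of 0.27. *Atf6b*, the relative of *Atf6*, had the highest value, at 73.8, 78.1 and 70.4 CPM against 103, 134 and 107 CPM (0.63 ± 0.15 SE, adjusted p = 0.0810, edgeR), and *Traf2*, an adaptor of IRE1, the lowest, at 36.4, 35.6 and 57.3 CPM against 29.6, 25.7 and 26.6 CPM (-0.66 ± 0.22 SE, adjusted p = 0.156, edgeR). The lines of neither gene overlapped. Of 3 genes that link CHOP to apoptosis, *Tnfrsf10b*, a death receptor that p53 also induces, was at 29.6, 48.5 and 41.0 CPM against 81.7, 99.05 and 90.1 CPM (1.18 ± 0.21 SE, adjusted p = 0.0499, edgeR). Its call was lost with RLE size factors and in every fit that left out a line. *Bcl2l11*, which encodes BIM, had the lowest value, at 27.9, 19.8 and 41.1 CPM against 17.2, 17.6 and 15.1 CPM (-0.83 ± 0.28 SE, adjusted p = 0.157, edgeR).

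**Figure D5:**
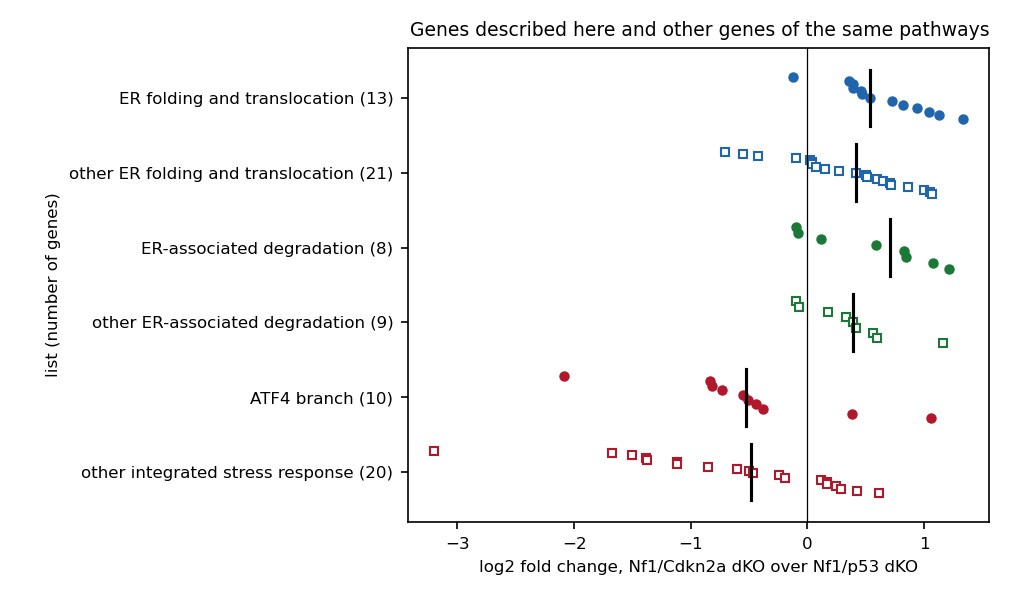
Each row shows the log2 fold changes (horizontal axis) of the genes described here (filled circles) or of other genes of the same pathway (open squares), with the median as a bar and the number of genes in parentheses. The medians lie at 0.53 and 0.41 for folding, 0.70 and 0.39 for ERAD, and -0.53 and -0.48 for the integrated stress response, where the point at -3.20 is *Fgf21* with its few counts.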

How the data were processed

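RNA-seq counts of 18 libraries were analyzed, from 3 cultures of each of 6 lines, 3 per genotype, as the labels name them. The authors deposited raw counts per gene, whole numbers of reads without normalization, in 1 table. The submitters' processing notes name CASAVA, STAR 2.5, DESeq2 1.14.1 and the build GRCm38 (mm10), while the counting tool is not given in the sources used here. Pairs of cultures of a line differed beyond sampling noise (chi-square per degree of freedom 3.57 to 29.2), so none was a repeat of another. The highest values, 26.5 and 29.2, were those of culture 1 of *Nf1*/*Cdkn2a* dKO line 1 against the other cultures of its line. All other pairs were at or below 13.8. Depth was 19560535 to 28312207 counts per library.

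Counts were summed per line, filtered with filterByExpr (minimum count 10, minimum total 15), scaled by TMM (factors 0.941 to 1.06) and tested by quasi-likelihood in edgeR, two-sided, with Benjamini-Hochberg adjustment over all genes and a threshold of 0.05. Lines of a genotype were compared with an F test with 4 degrees of freedom on the 18 cultures. Tools were DESeq2 1.42.0, edgeR 4.0.16 and limma 3.58.1 under R 4.3.3, and pandas 2.3.3 and matplotlib 3.10.9 in Python 3.11.15. The fits were run on simulated counts with the same spread for every gene and large planted changes. That checks the code, not how the fits do with the spread of these lines. TPM used exon lengths of 34490 genes. No protein sequences were used here, so the planned search of protein motifs was not run.

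The genes, branches and lists were chosen with earlier results of these data known. Line values are given, of the 42 genes, for called genes, genes whose lines do not overlap between genotypes and the highest and lowest of each branch, and the others by range or log2 fold change. Of the 62 pathway genes they are given for called genes and the highest and lowest of each list, except *Fgf21*, given by its counts, and with *Hspa5* added. 11 of the 42 genes are overlapped by a gene on the opposite strand, among them *Atf5*, *Ddit3*, *Creb3*, *Syvn1*, *Manf*, *Pdia3* and *Pdia6*. On the same strand, *Manf* is also overlapped by *Rbm15b*, and the part of this in its counts was not tested. Alternatives were RLE size factors, no filter, DESeq2, the 18 cultures as separate samples, limma-voom with lines as random effects, line or culture number as a block, and leaving out each line or culture, with scaling to total counts added after seeing the data.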

Additional observations from a re-analysis of the deposited data

How the results depend on the processing

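The counts of calls depended on the unit of replication and on single lines, whereas the median over the 42 genes kept its sign. With edgeR on the 6 lines, 274 genes, 3 of the 42 and 3 of the 62 pathway genes were called. Scaling to total counts gave 423, 3 and 6, with a median over the 42 genes of 0.26 (median of all genes -0.16). DESeq2 on the 6 lines gave 2055, 13 and 15. Treating the 18 cultures as separate samples gave 6096, 33 and 39 with edgeR and 7171, 32 and 40 with DESeq2, and the cultures of a line are not independent tumors. limma-voom with lines as random effects gave 2173, 20 and 26. With RLE size factors 282, 3 and 2 were called, and with no filter 411, 3 and 4.

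Leaving out 1 line gave 0 to 172 genes, 0 to 1 of the 42 and 0 to 2 of the 62, with edgeR and 2 lines left in a genotype. Without *Nf1*/*Cdkn2a* dKO line 1 it called 0 genes, with 2668 at an unadjusted p under 0.05, 18 of them among the 42. The count of genes moved by over 1.5 times whichever line was left out. The median over the 42 genes stayed at 0.30 to 0.49. Of single genes, 3 turned sign, none of them called in any of these fits: *Creb3l2* (-0.0267 to 0.25), *Ero1l* (-0.28 to 0.21) and *Herpud1* (-0.31 to 0.20). With scaling to total counts, *Creb3l2* was at -0.0612 and *Derl2* at -0.0180. Without *Nf1*/*p53* dKO line 3 the ATF4 branch median was -0.69 and that of ERAD 0.58.

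Line numbers did not pair the samples (correlation of same-numbered lines' deviations -0.13 to -0.09), nor did culture numbers (median -0.01). With the line number as a block, edgeR called 0 of all genes, 0 of the 42 and 0 of the 62, with 2740, 19 and 26 at an unadjusted p under 0.05. With the culture number as a block on the 18 cultures it called 5681, 32 and 36. Of the test between lines, 36 to 40 of the 42 and 10538 to 12304 genes were called under every alternative run, with 39 and 11860 under the block of culture numbers. The values of *Derl3* and *Fgf21* are limited by their few counts. The causes of these shifts were not tested.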
